A study of Rattus norvegicus with 6 samples.

Results

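The T cell receptor complex was followed through 10 genes chosen by name: the CD3 chains Cd3e, Cd3g and Cd3d, the zeta chain Cd247, the coreceptors Cd4 and Cd8a, the kinases Lck and Zap70, and the surface proteins Cd2 and Cd5. Of these, 9 had a row among the 30562 genes of the count table, and Cd4 was not analysed here. The T cell receptor reads peptides held on MHC molecules through variable chains that cannot signal by themselves. Signalling runs through the CD3 and zeta chains, whose tyrosines are phosphorylated by Lck once the receptor is engaged and then hold the kinase Zap70. T cells are scarce in the intact disc, a tissue without vessels, and can enter it after injury.

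Bulk RNA was measured in 6 libraries from rat tail discs, 3 in each of 2 groups. By the study's methods the rats were twelve-week-old male Sprague-Dawley animals whose Co6–Co7 disc had been punctured with a needle, so both groups were injured. The control group received PBS into the disc. The other group, labelled AF-PTK@LEV@SPP1, received a hybrid of liposome and bacterial outer membrane vesicle that bears a peptide for the annulus fibrosus on a linker cut by reactive oxygen species and that carries an siRNA against Spp1; its libraries are written as AF-PTK-labelled below. Injection began a day after surgery in an eight-week course. The sample records differ in that they name an untreated control, a treatment of 14 days, wild-type mice and macrophages sorted on F4/80 and CD11b, while the paper describes whole disc tissue. The disc markers of a list (9 genes, with Col1a1 the most abundant) summed to 68314, 96060 and 96725 normalized CPM in control replicates 1, 2 and 3 and to 145437, 102445 and 131059 in the other group, where CPM are counts scaled to a common library size. Disc genes were thus present in every library, and their sum was higher in all AF-PTK-labelled libraries than in any control library.

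The libraries held 15560728 to 17942989 counts, so that 3 counts, the smallest level taken as measured, stood at 0.167 to 0.193 CPM before normalization. Receptor genes were counted with 5 to 171 reads per library, and counting error alone is sizeable at that depth. Spp1, which the siRNA is meant to silence, had 8114, 4408 and 4414 normalized CPM in control replicates 1, 2 and 3 and 8047, 6893 and 8451 in AF-PTK-labelled replicates 1, 2 and 3. By the quasi-likelihood test of edgeR, Spp1 was not lower in the latter (log2 fold change 0.31, standard error SE 0.37, edgeR-adjusted p = 0.628 by Benjamini-Hochberg), and every direction is therefore given relative to the labels. Control replicates 2 and 3 differed little beyond counting noise, with a variance 1.33 times that of counting alone against 51.3 to 107 for the other pairs within a group. They were counted as 1 sample, which leaves 5 distinct samples, 2 control and 3 AF-PTK-labelled.

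Of the receptor genes, Cd8a and Cd2 passed the test. They fell about as far as each other in the AF-PTK-labelled libraries, and the chains Cd3e, Cd3g and Cd3d lay lower there in every library without passing the threshold. Cd247, which encodes the zeta chain of the same complex, lay slightly higher, and Lck, Zap70 and Cd5 overlapped between the groups. A gene was called where edgeR's adjusted p was under 0.05 and the level changed more than 2-fold; on the 5 distinct samples, 2 of the 9 genes were lower and 0 higher. Over all 15537 genes tested the same rule called 2.02% lower and 0.888% higher. At an unadjusted p under 0.05, 5 of the 9 were lower and 0 higher, beside 13% and 12.4% of all genes tested. The median log2 fold change was -1.24 over the 9 genes and 0.05 over all genes tested; without Cd3d, whose own value is that median and whose lower level the filter partly builds in, it was -0.75 over the other 8. Normalized CPM did not overlap between the groups for 5 of the 9 genes on the lower side and 1 on the higher side, against 21.9% and 23.9% of all genes. In whole tissue, fewer cells of a type and less RNA per cell cannot be told apart, and the counts cover both.

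With the 6 libraries kept as 6 samples, 4 of the 9 genes passed on the lower side, Cd3e and Cd3g in addition, beside 4.62% of 15042 genes lower and 4.21% higher. That fit counts the near-identical control replicates 2 and 3 as 2 samples and so understates the spread. The limit holds for every result given below with the 6 libraries kept. DESeq2 on the 5 samples also placed 4 lower and 0 higher, beside 3.25% lower and 3.27% higher of the 22112 genes it covered. Any of the 22112 left without an adjusted p counted as not called, which can lower the DESeq2 shares here and below. Neither of the calls on Cd8a and Cd2 held without control replicate 1 or without any of the AF-PTK-labelled libraries, each of which leaves 4 samples. Without AF-PTK-labelled replicate 2 or 3, edgeR called 0 genes of the whole table, with 3109 and 2699 at an unadjusted p under 0.05. On the 5 samples DESeq2 called 1442 and edgeR 452. All 9 genes passed the filter on low counts. Cd3d passed it through the control samples, because 1 of the 3 AF-PTK-labelled samples reached its cutoff of 0.560 CPM, and for such a gene a lower level in that group is partly built in.

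**Figure D1:**
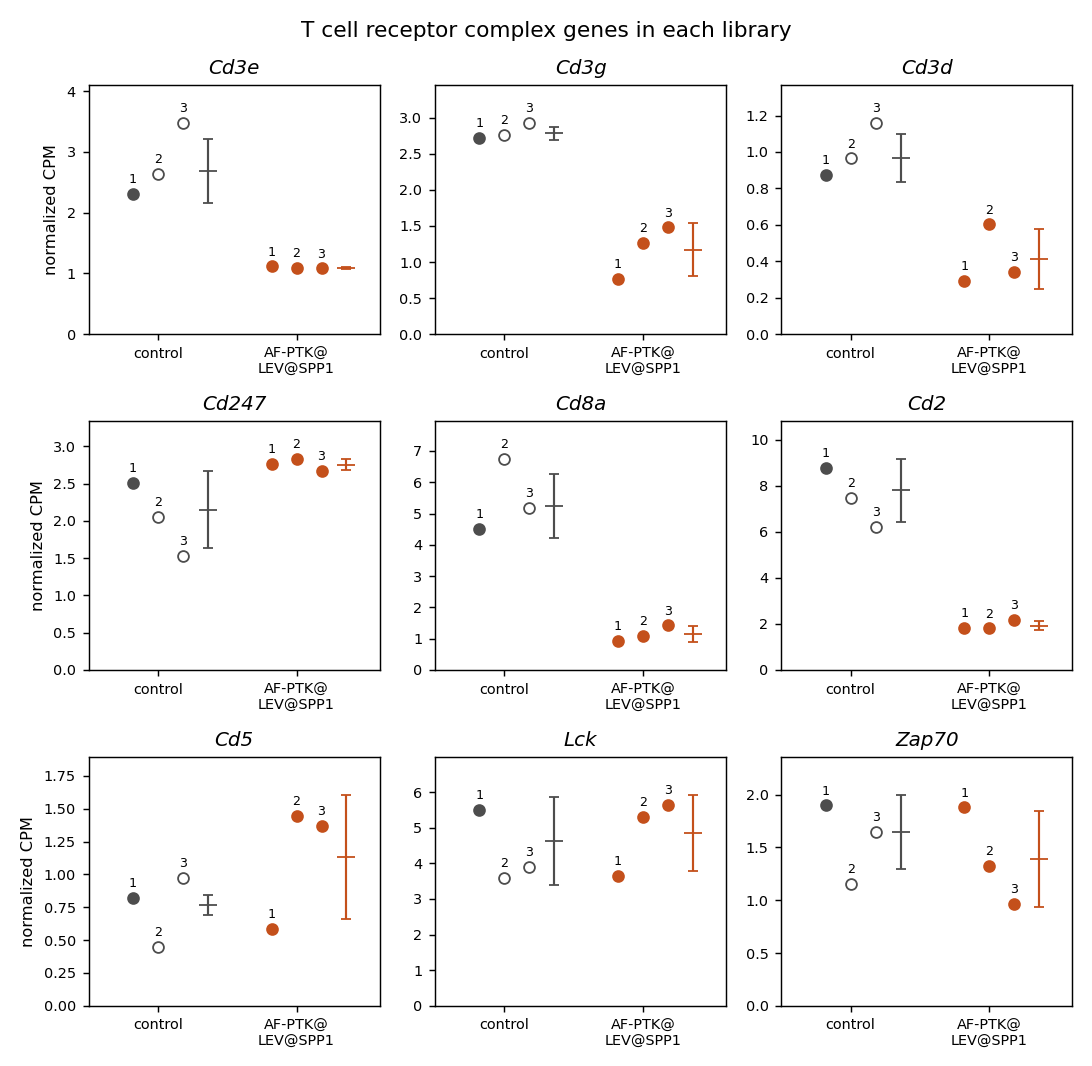
Normalized CPM (vertical axes, counts scaled to a common library size) of the 9 receptor complex genes in each library, numbered by replicate; open points are the near-identical control replicates 2 and 3, and the bars are mean ± SD over 2 distinct control samples and 3 AF-PTK-labelled samples. Cd3e, Cd3g, Cd3d, Cd8a and Cd2 lie lower in every AF-PTK-labelled library, Cd247 lies higher, and Cd5, Lck and Zap70 overlap.

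Cd3e, the epsilon chain that pairs with both the gamma and the delta chain, had 2.31, 2.64 and 3.48 normalized CPM in control replicates 1, 2 and 3 and 1.12, 1.08 and 1.08 in the AF-PTK-labelled libraries. The lowest control library lay above every library of the other group, whose values were close to each other. Means were 2.68 ± 0.529 (SD, n = 2 distinct samples) and 1.09 ± 0.0191 (SD, n = 3). The log2 fold change was -1.30 (SE 0.30, edgeR-adjusted p = 0.0800), and the adjusted p was 0.0205 with the 6 libraries kept. Cd3g, the gamma chain, had 2.72, 2.76 and 2.93 normalized CPM in the control libraries and 0.764, 1.27 and 1.48 in the others. Control values were nearly level, and AF-PTK-labelled replicate 1 was the lowest of the 6. The means of Cd3g were 2.78 ± 0.0898 (SD, n = 2) and 1.17 ± 0.368 (SD, n = 3), a log2 fold change of -1.26 (SE 0.37, edgeR-adjusted p = 0.123, or 0.0376 with the 6 libraries kept).

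Cd3d, the delta chain, was the most thinly counted of the 3, with 17, 15 and 19 reads in control and 5, 10 and 6 in the AF-PTK-labelled libraries. These reads correspond to 0.872, 0.964 and 1.16 normalized CPM in control and 0.294, 0.603 and 0.342 in the other group. The groups did not overlap, with replicate 2 the highest of the lower group. The log2 fold change of -1.24 (standard error 0.47) did not pass, with edgeR-adjusted p of 0.185 and 0.0662 with the 6 libraries kept. The 3 fold changes thus lay within 1 standard error of each other, with means 2.34, 2.38 and 2.45 times as high in control for Cd3d, Cd3g and Cd3e. For each of the 3 chains exact permutation of the 5 distinct samples gave p = 0.1, two-sided, the smallest that 3 samples against 2 allow.

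Cd247 encodes the zeta chain, which completes the receptor at the surface of T cells and also signals for activating receptors of NK cells. It had 2.51, 2.06 and 1.53 normalized CPM in control replicates 1, 2 and 3 and 2.76, 2.83 and 2.68 in the AF-PTK-labelled libraries, each of the latter from 47 reads. All control libraries lay under the other group, control replicate 1 by little. Means were 2.15 ± 0.511 (SD, n = 2) and 2.76 ± 0.0783 (SD, n = 3), and the log2 fold change was 0.36 (SE 0.28, edgeR-adjusted p = 0.471; exact permutation p = 0.1). The log2 fold change of Cd247 was above 0 in all 13 alternatives run, from 0.26 to 0.61 on the log2 scale, and passed in none of them.

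The chains were also set against each other within a library, which restates the levels given above. The level of Cd247 divided by the summed level of Cd3e, Cd3g and Cd3d was 0.426, 0.323 and 0.202 in control replicates 1, 2 and 3 and 1.27, 0.959 and 0.922 in the AF-PTK-labelled libraries. Every library of the latter group lay above every control library, which follows from the levels of the single genes. The 3 CD3 chains together summed to 5.90, 6.36 and 7.57 normalized CPM in control and to 2.17, 2.95 and 2.90 in the other group. With Cd247 included, the sums were 8.41, 8.42 and 9.09 against 4.93, 5.78 and 5.58, which also did not overlap. Lck divided by the 3 chains was 0.930, 0.566 and 0.516 in control and 1.68, 1.80 and 1.94 in the other group. These ratios are descriptions and were not tested, and since the genes differ in length they say nothing on how many molecules of each there were.

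Relative to leukocytes as a whole the picture differed. Ptprc encodes CD45, a phosphatase carried by nucleated leukocytes, and had 155, 90.5 and 85.4 normalized CPM in control replicates 1, 2 and 3 and 54.0, 169 and 180.1 in the AF-PTK-labelled libraries. The summed level of the 4 chains per 1000 normalized CPM of Ptprc was 54.4, 93.1 and 107 in control and 91.3, 34.2 and 31.0 in the other group. Here the groups overlapped, since AF-PTK-labelled replicate 1, with the least Ptprc, lay among the control libraries. The means were 77.1 ± 32.1 (SD, n = 2) and 52.2 ± 33.9 (SD, n = 3), a difference within the spread between samples. Without AF-PTK-labelled replicate 1, left out after its values were seen, the mean of the 4 chains in its group was 32.6. Control replicate 1, at 54.4, also lay apart from its group and was kept. Without Cd247, the level of Cd3e, Cd3g and Cd3d per 1000 of Ptprc was 38.2, 70.4 and 88.6 in control replicates 1, 2 and 3. It was 40.2, 17.5 and 16.1 in the AF-PTK-labelled libraries, and the groups overlapped again.

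Among the coreceptors, Cd8a binds MHC class I and brings Lck to the receptor of cytotoxic T cells; in the rat it is also found on NK cells and some macrophages. It had 4.52, 6.75 and 5.19 normalized CPM in control replicates 1, 2 and 3 and 0.940, 1.08 and 1.42 in the AF-PTK-labelled libraries. All control libraries stood well above the others, without overlap. Means were 5.24 ± 1.03 (SD, n = 2) and 1.15 ± 0.248 (SD, n = 3), a ratio of 4.56. Cd8a fell by 2.19 on the log2 scale (SE 0.31, edgeR-adjusted p = 0.0363), lower in 3 of 3 libraries. Its partner Cd8b, the beta chain that is more restricted to T cells, was counted with 26, 31 and 43 reads in control and 5, 5 and 4 in the other group. Its normalized CPM of 1.33, 1.99 and 2.62 against 0.294, 0.301 and 0.228 did not overlap. Cd8b fell by 2.73 (SE 0.44, edgeR-adjusted p = 0.0427). It passed the filter through the control samples alone, so its lower level is partly built in.

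Cd2, an adhesion molecule of T and NK cells that binds partner cells and lowers the threshold of activation, had 8.77, 7.46 and 6.22 normalized CPM in control replicates 1, 2 and 3 and 1.82, 1.81 and 2.16 in the AF-PTK-labelled libraries. The groups were far apart compared with the spread inside either. Means were 7.81 ± 1.37 (SD, n = 2) and 1.93 ± 0.202 (SD, n = 3), a ratio of 4.04. Cd2 fell by 2.02 on the log2 scale (SE 0.24, edgeR-adjusted p = 0.0260). Without control replicate 1 the adjusted p was 0.0662 for Cd8a and 0.0689 for Cd2. Without AF-PTK-labelled replicates 1, 2 and 3 it was 0.0753, 0.105 and 0.146 for Cd8a and 0.0637, 0.0888 and 0.137 for Cd2, with log2 fold changes from -2.38 to -2.07 and from -2.10 to -1.83 over all 13 alternatives run. Over those alternatives the adjusted p ran from 2.06e-06 to 0.146 for Cd8a and from 1.46e-08 to 0.137 for Cd2, the lowest from DESeq2.

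Cd5, a scavenger-receptor protein that dampens the antigen receptor signal, overlapped between the groups. It had 0.821, 0.450 and 0.976 normalized CPM in control replicates 1, 2 and 3, from 16, 7 and 16 reads, and 0.587, 1.45 and 1.37 in the AF-PTK-labelled libraries. Replicates 2 and 3 of the latter were the highest and replicate 1 lay inside the control range. The log2 fold change was 0.55 (SE 0.51, edgeR-adjusted p = 0.533), about as large as its error.

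Lck, the Src-family kinase that starts the phosphorylation of the CD3 and zeta chains, had 5.49, 3.60 and 3.90 normalized CPM in control replicates 1, 2 and 3 and 3.64, 5.30 and 5.64 in the AF-PTK-labelled libraries. Control replicate 1 and replicates 2 and 3 of the other group were high, and the remaining 3 libraries low, so the groups overlapped. Means were 4.62 ± 1.23 (SD, n = 2) and 4.86 ± 1.07 (SD, n = 3). The log2 fold change was 0.07 (SE 0.31, edgeR-adjusted p = 0.908) and turned to -0.05 without AF-PTK-labelled replicate 3. Zap70, the kinase that docks on the phosphorylated chains, had 1.90, 1.16 and 1.65 in control and 1.88, 1.33 and 0.968 in the other group, in normalized CPM. Both ranges covered much the same levels. Its log2 fold change of -0.25 (SE 0.41, edgeR-adjusted p = 0.732) was smaller than its error. Over the 13 alternatives run it ran from -0.56, without AF-PTK-labelled replicate 1, to -0.03, without control replicate 1. Whether the response of Lck, Zap70 or Cd5 differed from that of Cd8a or Cd2 was not tested.

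**Figure D2:**
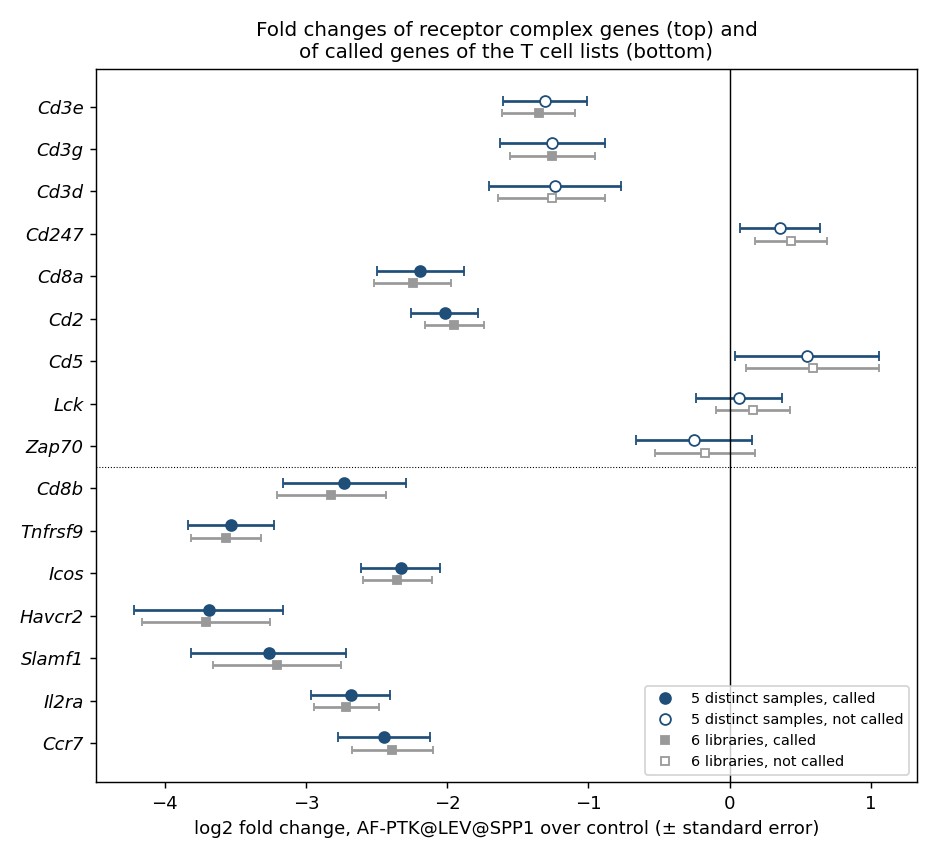
Log2 fold change (horizontal axis, AF-PTK label over control, ± standard error) of the 9 receptor complex genes above the dotted line and of the 7 called genes of the T cell lists under it. Circles are the fit on 5 distinct samples and squares the fit with 6 libraries kept, filled where the gene passed; Cd8a and Cd2 passed in both, and Cd3e and Cd3g in the latter alone.

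In the authors' table Cd3g, Cd3d and Cd3e are neighbours on chromosome 8. Cd3g runs from 45281204 to 45287147 on the minus strand, Cd3d from 45288749 to 45301809 on the plus strand and Cd3e from 45303852 to 45315022 on the minus strand. The remaining 6 genes lie on other chromosomes, among them Cd247 on chromosome 13 from 78043307 to 78122263, Cd8a on chromosome 4 from 103365804 to 103370040 and Cd2 on chromosome 2 from 188710900 to 188724026. The build of these positions is not settled, because the sample records name the mouse build mm10 whereas the gene identifiers are those of rat. No other gene of the table overlapped the span of any of the 9.

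The 3 neighbouring chains that lay lower together and the unlinked Cd247 that did not are shown with the 250 bases before their starts, from RefSeq on GRCr8, where 9 of the 10 genes had a promoter entry and Lck had 2. On that build the starts of Cd3g and Cd3d face away from each other and lie 1601 bases apart. Capitals mark letters that match the ETS core AGGAAGT or the E-box CAGCTG. The RUNX core TGTGGT, the GATA core AGATAA and the TATA box TATAAA were searched as well, all on both strands, and matches in these windows did not overlap. The windows are chr8:54183919-54184168 (minus strand) for Cd3g, chr8:54185269-54185518 (plus strand) for Cd3d, chr8:54211771-54212020 (minus strand) for Cd3e and chr13:80576019-80576268 (plus strand) for Cd247, each printed 5′ to 3′ toward its gene.
Cd3g: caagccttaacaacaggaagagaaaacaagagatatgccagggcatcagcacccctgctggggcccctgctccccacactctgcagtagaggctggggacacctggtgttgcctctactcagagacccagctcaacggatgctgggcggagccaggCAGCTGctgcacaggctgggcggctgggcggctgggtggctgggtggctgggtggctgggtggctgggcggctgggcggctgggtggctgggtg
Cd3d: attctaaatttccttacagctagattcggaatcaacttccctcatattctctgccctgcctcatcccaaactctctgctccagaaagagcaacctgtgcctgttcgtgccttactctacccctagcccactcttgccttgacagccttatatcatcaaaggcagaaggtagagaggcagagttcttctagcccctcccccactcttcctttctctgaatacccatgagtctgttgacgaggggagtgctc
Cd3e: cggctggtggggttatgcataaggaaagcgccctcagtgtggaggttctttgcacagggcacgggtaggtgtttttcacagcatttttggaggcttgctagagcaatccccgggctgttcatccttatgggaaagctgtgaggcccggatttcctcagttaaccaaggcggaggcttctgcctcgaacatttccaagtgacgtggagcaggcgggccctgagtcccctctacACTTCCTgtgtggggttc
Cd247: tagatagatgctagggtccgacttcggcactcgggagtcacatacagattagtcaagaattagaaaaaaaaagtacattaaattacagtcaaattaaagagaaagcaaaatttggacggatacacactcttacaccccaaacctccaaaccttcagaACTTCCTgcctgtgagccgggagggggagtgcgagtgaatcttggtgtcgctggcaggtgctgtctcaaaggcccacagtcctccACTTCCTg

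The ETS letters began 18 bases before the start of Cd3e and 93 and 8 bases before that of Cd247, on the minus strand of each window, and the E-box letters 94 bases before that of Cd3g. The window of Cd3d held none of the 5 motifs. The 10 promoters are those of the 9 genes with an entry among all 10 named genes, Cd4 included in the search. Over these 10 promoters, the ETS letters were found in 5, the E-box in 3, RUNX in 2, and GATA and TATA in 0. Of 33469 rat promoters of the same length, 7.08% held the ETS letters, 12% the E-box, 14.5% the RUNX, 10.3% the GATA and 12.9% the TATA letters. A match describes letters in a window and is not a measured site.

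Other T cell genes were read through 8 lists, whose genes outside the 10 above numbered 117 by name, 103 in the table and 85 tested. Of the 85, edgeR called 7 lower and 0 higher on the 5 distinct samples, and 3 of these 7 (Cd8b, Slamf1 and Havcr2) passed the filter through the control samples alone. With the 6 libraries kept 13 of 80 tested were lower and 0 higher, and in DESeq2 13 of 101 were lower and 0 higher. Over all genes the lower and higher shares were 2.02% and 0.888% on the 5 samples, 4.62% and 4.21% with the 6 libraries, and 3.25% and 3.27% by DESeq2. Of the 7, Tnfrsf9 and Il2ra also passed without control replicate 1 (edgeR-adjusted p = 0.0397 and 0.0494) and Tnfrsf9 without AF-PTK-labelled replicate 1 (edgeR-adjusted p = 0.0361). By edgeR 0 genes of the lists passed without replicate 2 or without replicate 3 of that label. At an unadjusted p under 0.05 the last 2 of these fits had 22 and 20 of 83 list genes tested, in either direction. Over all genes tested they had 3109 of 15208 and 2699 of 15228. Constant chains of the antigen receptor itself were not analysed here, and Cd8b was the tested gene of that list.

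Co-stimulatory and co-inhibitory receptors held 4 of the 7, of 13 tested, with a list median of -1.15 on the log2 scale against 0.05 for all genes tested. Of the 13, 3 passed the filter through the control samples alone (Havcr2, Slamf1 and Ctla4, the last named after its values were seen), and 2 had fewer than 2 control samples over its cutoff (Cd27 and Cd96, also named after their values were seen). The median draws on both kinds and the count on the former. Tnfrsf9 (4-1BB), which appears on activated T cells, had 7.95, 9.64 and 9.76 normalized CPM in control replicates 1, 2 and 3 and 0.999, 0.663 and 0.626 in the AF-PTK-labelled libraries. Icos, a co-stimulator of activated T cells, had 3.69, 3.79 and 4.88 against 0.705, 0.844 and 0.854 normalized CPM. Neither gene overlapped between the groups, and edgeR's adjusted p was 0.0196 and 0.0276, at log2 fold changes of -3.53 and -2.33. Havcr2 (TIM-3), an inhibitory receptor that macrophages also carry, had 129, 129 and 109 reads in control and 5, 6 and 17 in the other group. Slamf1, an adhesion receptor of lymphocytes and myeloid cells, had 41, 27 and 28 reads against 2, 2 and 6. Both were lower in 3 of 3 libraries, with log2 fold changes of -3.69 and -3.26 and edgeR-adjusted p of 0.0372 and 0.0476. Havcr2 and Slamf1 passed the filter through the control samples, with 1 and 0 of the 3 AF-PTK-labelled samples over its cutoff, so their lower level is partly built in. Lag3 passed with the 6 libraries kept (log2 fold change -1.23, edgeR-adjusted p = 0.0320) and was chosen after its values were seen. Cd28, the main co-stimulator of resting T cells, had 79, 69 and 79 reads in control and 97, 36 and 64 in the other group, which overlapped, and was likewise chosen after its values were seen.

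Cytokine and homing receptors of T cells held the remaining 2 of 10 tested, with a median of -1.19. That median draws on 1 gene with fewer than 2 control samples over the filter's cutoff (Cxcr3, named after its values were seen). Il2ra, the chain that makes the IL-2 receptor of activated and regulatory T cells high in affinity, had 4.10, 4.69 and 5.19 normalized CPM in control replicates 1, 2 and 3 and 0.764, 0.723 and 0.626 in the AF-PTK-labelled libraries. It fell by 2.68 on the log2 scale (SE 0.28, edgeR-adjusted p = 0.0221). Ccr7, which guides T and dendritic cells to lymph nodes, had 3.49, 2.51 and 3.29 against 0.470, 0.603 and 0.683 normalized CPM. It fell by 2.44 (SE 0.33, edgeR-adjusted p = 0.0322). Of the 10 tested genes, 7 lay lower without overlap between the groups and 0 higher, beside 21.9% and 23.9% of all genes tested. Cxcr6 passed with the 6 libraries kept (log2 fold change -1.69, edgeR-adjusted p = 0.00925), a result noted after its values were seen. Ccr4, a receptor of helper T cells noted in the same way, had 4, 3 and 8 reads in control and 0 in each of the 3 other libraries, too few to be tested.

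Proximal kinases and adapters had 0 of 16 tested genes called by edgeR, with a median log2 fold change of -0.03. That median draws on 2 genes with fewer than 2 control samples over the filter's cutoff (Txk and Skap1), as do those below for 2 inhibitors (Ubash3a and Sit1) and 1 transcription factor (Tbx21), all named after their values were seen, and the higher level of such genes is partly built in. Lat, the membrane adapter phosphorylated by Zap70, had 147, 77 and 91 reads in control replicates 1, 2 and 3 and 41, 63 and 39 in the AF-PTK-labelled libraries, and was chosen after its values were seen. Its log2 fold change was -1.19 (edgeR-adjusted p = 0.113), and it passed with the 6 libraries kept (adjusted p = 0.0480). Fyn, a Src-family kinase of many cell types, had 89.4, 71.6 and 70.7 against 50.6, 58.8 and 53.6 normalized CPM, without overlap, at an edgeR-adjusted p of 0.0907. Plcg1, the phospholipase that Lat recruits, had 110, 129 and 126 against 138, 117 and 113, which overlapped. At an unadjusted p under 0.05 the list had 4 genes lower (Lat, Fyn, Sh2d2a and Nck1) and 0 higher, and DESeq2 called Lat alone. Of all genes tested, 13% were lower and 12.4% higher at that unadjusted p, which holds beside the counts of the lists that follow as well.

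Downstream calcium, RAS and NF-kB genes had 0 of 14 called by edgeR (median 0.10), with Rasgrp1 and Bcl10 lower and Stim1 higher at an unadjusted p under 0.05 and Rasgrp1 lower by DESeq2. Calcineurin subunits Ppp3r1 and Ppp3ca, the most abundant of that list, both overlapped between the groups. Rasgrp1, which activates RAS in lymphocytes and was noted after its values were seen, passed with the 6 libraries kept (log2 fold change -1.15, edgeR-adjusted p = 0.0352). Inhibitors of antigen receptor signalling had 0 of 14 called by edgeR (median 0.13), Cblb lower and 0 genes higher at an unadjusted p under 0.05, and 0 by DESeq2, and their most abundant genes Dgkz and Csk overlapped. T lineage transcription factors had 0 of 12 called by edgeR (median -0.08), Runx1 and Ets1 lower and 0 genes higher at an unadjusted p under 0.05, and Runx1 lower by DESeq2. Stim1, the calcium sensor of the endoplasmic reticulum, had 827, 641 and 671 reads in control and 1151, 1122 and 1109 in the other group, and Cblb, a ubiquitin ligase that restrains the receptor, 1011, 791 and 850 against 548, 449 and 443. Both had an edgeR-adjusted p under 0.05 (0.0397 and 0.0411) at less than a 2-fold change, with log2 fold changes of 0.65 and -0.88, and were chosen after their values were seen.

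Ets1, the most abundant, had 182, 234 and 227 normalized CPM in control and 122, 146 and 157 in the other group, lower in 3 of 3 libraries at an edgeR-adjusted p of 0.140. Runx1, noted after its values were seen, passed with the 6 libraries kept (log2 fold change -1.69, edgeR-adjusted p = 0.0147). Ikzf1, which all lymphoid and many myeloid cells express, had 765, 187 and 235 reads against 278, 1140 and 1156. It was high in control replicate 1 and in AF-PTK-labelled replicates 2 and 3, as Lck was.

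Many T cell effector products were near the limit of counting, Nkg7 being the most abundant. Of 13 in the table, 5 were tested and 0 called by edgeR, by DESeq2 or at an unadjusted p under 0.05, with a median of 0.82. All 5 had 1 of the 2 control samples over the filter's cutoff, so genes high in the other group were more readily tested and the median is partly built in. Il2 and Il13 had 0 reads in every library, and Ifng 4 reads in control replicate 3 and 0 elsewhere. A count of 0 allows up to 3 counts in a library. Il17a, noted after its values were seen, had 3, 7 and 10 reads in control replicates 1, 2 and 3 and 0 in each AF-PTK-labelled library. Ccl5 had 25, 10 and 8 reads against 21, 28 and 19. Nkg7, a granule gene of cytotoxic lymphocytes, had 87, 10 and 4 reads in control and 27, 188 and 298 in the other group, again with control replicate 1 and replicates 2 and 3 of the other group high. Ligands on partner cells, such as MHC chains, had 0 of 17 called by edgeR (median -0.35), while Tnfsf9 was lower and 0 genes higher at an unadjusted p under 0.05, by DESeq2 and with the 6 libraries kept, and of their most abundant genes B2m did not overlap and Cd74 did.

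Markers of other blood cells varied between the libraries along lines that crossed the groups. Neutrophil markers (9 genes, S100a9 the most abundant) summed to 1107, 172 and 163 normalized CPM in control replicates 1, 2 and 3 and to 281, 2825 and 3908 in the AF-PTK-labelled libraries. Genes of lymphoid precursors (4 genes, Rag1 the most abundant) summed to 17.2, 0.643 and 1.16 against 4.93, 16.8 and 31.7. Control replicate 1 and replicates 2 and 3 of the other group were thus high in both lists, the same libraries in which Lck was high. B cell markers (9 genes, Ebf1 the most abundant) summed to 108, 50.3 and 42.8 against 76.4, 133 and 165. NK cell markers (7 genes, Nkg7 the most abundant) summed to 11.6, 7.46 and 4.94 against 7.17, 27.7 and 28.1, which overlapped. NK cells share Cd247, Lck, Zap70 and Cd2 with T cells. By gene, Cd79a, a signalling chain of the B cell receptor, had 389, 49 and 36 reads in control and 135, 401 and 725 in the other group. Dntt, which adds bases when receptor genes are joined in lymphoid precursors, had 66, 7 and 7 reads against 27, 79 and 130. Klrk1, an activating receptor of NK cells, had 59, 61 and 53 against 42, 140 and 100.

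Pan-leukocyte genes (6 genes, Ptprc the most abundant) summed to 561, 314 and 309 in control replicates 1, 2 and 3 and to 159, 500 and 532 in the AF-PTK-labelled libraries, in normalized CPM. Erythroid markers (8 genes, Hba-a1 the most abundant) summed to 2395, 3186 and 3276 against 2508, 20614 and 14117. AF-PTK-labelled replicates 2 and 3 were the highest for erythroid genes, and replicate 1 lay among the controls. Mast cell markers (6 genes, Kit the most abundant) summed to 26.8, 21.5 and 21.2 against 20.5, 46.8 and 34.0, and dendritic cell markers (4 genes, Zbtb46 the most abundant) to 17.6, 11.3 and 10.8 against 15.3, 22.4 and 15.9. No gene of these lists was at 0 in every library. By edgeR 0 genes of the neutrophil (8 tested), precursor (3), B cell (9), NK cell (5), erythroid (8), dendritic (3), mast (6), pan-leukocyte (6) and disc (9) lists were called. At an unadjusted p under 0.05, the B cell genes Vpreb1 and Cd22, the erythroid gene Alas2 and the notochord genes Krt8 and Tbxt were higher. DESeq2 called Vpreb1, Alas2, Hba-a1, Klf1, the mast cell gene Ms4a2, Krt8 and Tbxt higher. The list medians were 1.87, 1.03, 1.23, 0.82, 3.24, 0.40, 0.00, 0.49 and 0.57 in that order of lists, on the log2 scale. These medians draw on genes with fewer than 2 control samples over the filter's cutoff, 3 of 8 neutrophil, 3 of 3 precursor, 4 of 9 B cell, 3 of 5 NK cell, 2 of 8 erythroid and 1 of 6 mast cell genes (Ms4a2), whose higher level is partly built in. Of the mast cell genes 2 (Tpsab1 and Tpsb2) passed through the control samples alone. These names were chosen after their values were seen. Of the 9 disc genes 4 lay higher without overlap (Col1a1, Col1a2, Krt8 and Tbxt) and 0 lower, beside 23.9% and 21.9% of all genes tested, opposite in direction to Cd8a and Cd2. The part of blood and disc cells in the values of the receptor genes was not tested.

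Macrophage and monocyte markers were lower in sum in the AF-PTK-labelled libraries, though not gene by gene. Over 11 genes, with Csf1r the most abundant, they summed to 1347, 892 and 889 normalized CPM in control replicates 1, 2 and 3 and to 447, 757 and 611 in the AF-PTK-labelled libraries, without overlap. Of 11 tested, edgeR called 2 lower, beside 2.02% of all genes tested, and the median log2 fold change was -0.88. Normalized CPM of 6 of the 11 lay lower without overlap, beside 21.9% of all genes, and 5 overlapped (Adgre1, Cd163, C1qa, C1qb and C1qc, named after their values were seen). Cd163, a scavenger receptor of macrophages, was higher on average, with 1052, 459 and 475 reads in control against 802, 2362 and 1550. Cd14, the lipopolysaccharide coreceptor, had 151, 134 and 134 against 38.1, 36.1 and 41.4 normalized CPM (log2 fold change -1.89, edgeR-adjusted p = 0.0119). Cd68, a lysosomal protein of macrophages, had 150, 112 and 116 against 28.5, 42.1 and 30.9 (log2 fold change -1.97, edgeR-adjusted p = 0.0231). Without AF-PTK-labelled replicates 2 or 3 the edgeR-adjusted p was 0.0679 or 0.130 for Cd14 and 0.0679 or 0.139 for Cd68, which also missed the threshold without control replicate 1 (0.0571) or AF-PTK-labelled replicate 1 (0.0565). Rat macrophages can carry Cd8a and Havcr2. The part of macrophages in those values, and in those of the other called T cell list genes such as Tnfrsf9 and Il2ra, was not tested.

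**Figure D3:**
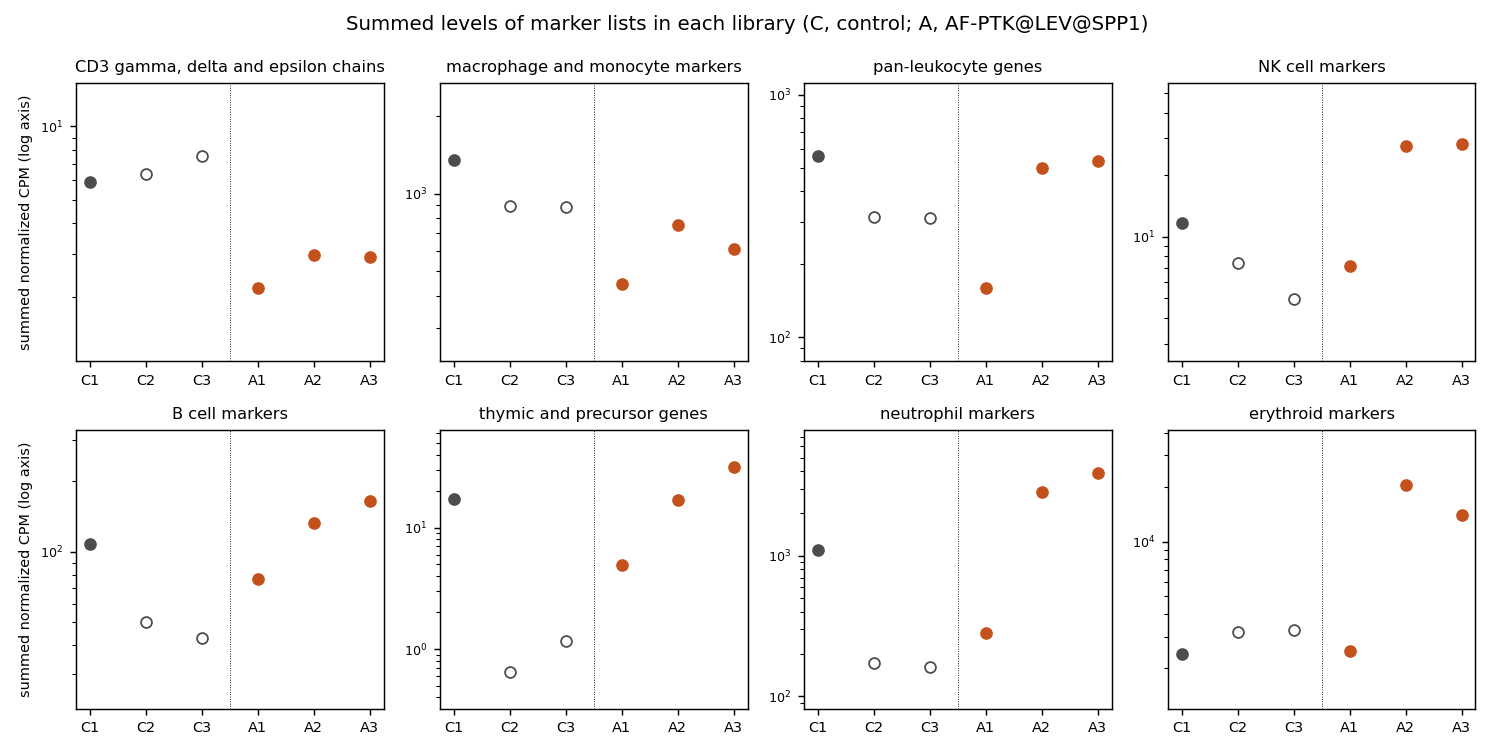
Summed normalized CPM (log axes) of the 3 CD3 chains and of 7 marker lists in each library, for control replicates (C1 to C3, with the near-identical pair open) and AF-PTK-labelled replicates (A1 to A3). CD3 chains and macrophage markers are lower in A1, A2 and A3 than in every control library, whereas NK, B, precursor, neutrophil and pan-leukocyte genes are high in C1, A2 and A3.

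The 9 genes did not share 1 pattern, with Cd247 higher where the CD3 chains were lower, and their average is given as a description. Over the 5 distinct samples the mean z score of log2 CPM of the 9 genes was 0.832 in control replicate 1, 0.105 in the control pair, and -0.662, 0.0367 and -0.312 in AF-PTK-labelled replicates 1, 2 and 3. Replicate 2 of the latter lay close to the control pair on this score. Among 12967 other genes whose log2 CPM averaged 1 or more, 388 had a Pearson r of at least 0.95 with the score over these 5 samples. The closest were Zdhhc14 (r = 0.999), Bckdhb (r = 0.999), Egr2 (r = 0.998), Limk1 (r = 0.998), S1pr1 (r = 0.996), Ftsj3 (r = 0.996), Jarid2 (r = 0.996), Tpp2 (r = 0.996), Asdurf (r = 0.996) and Vps50 (r = 0.996). With 5 points such values are common, as the count of 388 shows, and they describe these samples alone. S1pr1, through which lymphocytes leave tissues, is also carried by vessel cells.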

How the data were processed

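Per the labels, the authors made the deposited counts with FastQC, Trimmomatic, HISAT2 and featureCounts, with no versions given; the labels also name DESeq2 and the mouse build mm10, while the table's genes are those of rat, so the build of its coordinates is not settled. From these counts, edgeR 4.0.16 under R 4.3.3 (TMM scaling, a filter on low counts, quasi-likelihood test, limma 3.58.1) compared 3 AF-PTK-labelled samples with 2 distinct control samples, control replicates 2 and 3 being summed because 0.111% of genes differed between them beyond counting noise, against 39.5% to 56.6% in the other 5 pairs within a group. The fit with 6 libraries kept, which understates the spread because it counts the near-identical pair as 2 samples, and DESeq2 1.42.0 were run beside it. Normalized CPM used the TMM factors of the 6 libraries, and means and SD took the average of control replicates 2 and 3 as 1 sample. Libraries held 15560728 to 17942989 counts.

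The genes and lists were chosen with earlier results of these data known. The lists were 8 of T cell genes (antigen receptor chains, proximal kinases and adapters, downstream arms, inhibitors, co-stimulatory and co-inhibitory receptors, transcription factors, cytokine and homing receptors, effector products), ligands on partner cells, and markers of precursors, NK, B, macrophage, neutrophil, erythroid, dendritic, mast, disc and pan-leukocyte cells. Named genes were all receptor complex genes in the table and, of each list, the genes called, or otherwise the 2 with the highest mean normalized CPM; for likeness, the 10 genes with the highest Pearson r. Genes named beyond this rule were chosen after their values were seen. Cd4 and the constant chains of the antigen receptor were not analysed here.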

Additional observations from a re-analysis of the deposited data

How the results depend on the processing

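Of all genes tested, 452 were called, with 2 receptor complex genes and 7 of the T cell lists. With the 6 libraries kept these counts were 1328, 4 and 13, and by DESeq2 1442, 4 and 13, Cd3e and Cd3g being the added receptor genes in both. With 1 library left out they ranged from 0 to 449, 0 to 2 and 0 to 7: 280, 0 and 3 without control replicate 1, 113, 0 and 1 without AF-PTK-labelled replicate 1, and 0 of each without replicate 2 or 3 of that label. At an unadjusted p under 0.05 these last fits had 3109 of 15208 and 2699 of 15228 genes tested. Among the 9 receptor genes they had 5 and 4. The fits that leave 1 control sample assume that it varies like the other group. RLE scaling gave 471, 2 and 7, totals only 452, 2 and 8, no filter 573, 2 and 9, a minimum count of 30 479, 2 and 6, and adjusted p alone 575, 2 and 9 (Cblb and Stim1 added). The replicate block, run with the 6 libraries kept although replicates share nothing but a number (deviations from the group means had r = -0.315, -0.265 and -0.0681 between same-numbered libraries and 0.0980 on average between others), gave 600, 2 and 6, with Cd8b (edgeR-adjusted p = 0.0525) and Slamf1 (edgeR-adjusted p = 0.0571) missing the threshold. The variance of control replicates 2 and 3 was 1.32 and 1.35 times counting noise at minimum counts of 10 and 50, against 1.33. Signs turned for genes near 0: Kit (-0.000195 by DESeq2 and -0.0154 without a filter), Plcg1 (-0.00546 without a filter), and, with 1 library left out, Lck (-0.0480 to 0.35), Plcg1 (-0.0838 to 0.10), Flt3 (-0.20 to 0.83), Kit (-0.21 to 0.26) and Ptprc (-0.12 to 0.60). The fold changes of the other receptor complex genes kept their signs in every alternative in which they were tested.

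With 2 distinct control samples the smallest exact p was 0.1, and calls rest on spread shared across genes. Cd3d, Cd5 and Cd8b were thinly counted. Bulk libraries do not separate cell number from RNA per cell, and blood cell content differed between libraries of a group. Spp1 was not lower under the AF-PTK label, and the sample records and the paper disagree on tissue, species, control and time, so directions belong to the labels.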
